A study of Cricetiscus sungorus with 12 samples.

Results

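The core circadian clock of mammals is a feedback loop of transcription factors, and 10 of its genes were followed here in the hypothalamus of the Djungarian hamster (Phodopus sungorus). They were chosen by their mouse Entrez GeneIDs, and all 10 were found among the 17191 GeneIDs measured. The activators are Arntl, also called Bmal1 (GeneID 11865), Clock (12753) and Npas2 (18143). The repressors are Per1 (18626), Per2 (18627), Per3 (18628), Cry1 (12952) and Cry2 (12953), and the nuclear receptors are Nr1d1 (217166) and Nr1d2 (353187).

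BMAL1 pairs with CLOCK, or with its relative NPAS2, and the pair binds E-box elements to activate the Per, Cry and Nr1d genes. PER and CRY proteins return to the nucleus and repress that activity, while the receptors encoded by Nr1d1 and Nr1d2 repress Arntl. The hypothalamus holds the suprachiasmatic nucleus, the main pacemaker of the body, but most of its other cells also carry a clock, and tissue from the whole hypothalamus mixes them.

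Polyadenylated RNA was sequenced from the hypothalamus of 12 adult hamsters, and each library was 1 hamster. The group LP-NT (n = 4) stayed in long photoperiod, with 16 h of light and 8 h of darkness per day, and was normothermic. SP-NT (n = 4) and SP-HT (n = 4) were adapted to short photoperiod, with 8 h of light and 16 h of darkness. SP-NT was sampled on a day without torpor and SP-HT during spontaneous daily torpor, with a lowered body temperature. All hamsters were sampled at about Zeitgeber time 4 h, counted from lights on, so the values show levels at a single time of day and not the phase or the amplitude of a rhythm. By their labels LP-NT and SP-NT each held 2 males and 2 females, and SP-HT held 3 males and 1 female. The hamsters came from an indoor breeding colony. The hamsters in short photoperiod had undergone surgery to receive temperature transmitters and those in long photoperiod had not, so in both comparisons with LP-NT photoperiod and surgery cannot be told apart.

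Library totals ranged from 20204979 to 24186918 expected counts, and each clock gene had between 403.7 and 3405 expected counts in every hamster, so none was near the limit of detection. For SP-NT replicate 19, labelled male, the counts went against the label. Of 3 GeneIDs with at least 100 counts in all but 1 of the labelled males and at most 10 in every female, each was low in this hamster. It had 0 counts for GeneIDs 20592 and 22290, for which the other 6 males had 979 to 1699 and 342 to 462 counts, and the 5 females 2 to 5 and 0 counts. The counts of calls in both comparisons with SP-NT, the log2(FC) of Arntl, Per2 and Per3 against LP-NT and of Per2 and Nr1d1 in torpor, and the relation of Per1 with Per2 are therefore also given without this hamster. Other values with SP-NT include it. If it was female, SP-NT held a larger share of females than LP-NT and SP-HT, and sex was balanced in neither comparison with SP-NT. The torpor directions below follow the sample labels. The study's own tables give the torpor comparison with the opposite sign, among them for the clock genes that they list. For SP-NT against LP-NT the signs there are those by the labels. These signs cannot show which libraries stood for SP-NT, since Per3, for example, was above 0 against LP-NT in both SP-NT and SP-HT. Why the torpor sign differs was not tested. The study's record of body temperature at sampling, kept by hamster number, has the hamsters numbered like the SP-HT libraries in the low range and those numbered like the SP-NT libraries in the normal range, as labelled. The labelled sexes are those that the study recorded for the hamsters of these numbers. The 3 GeneIDs above were chosen by these labels, so the other libraries had to follow them, and this is no check of the libraries. It was not tested whether each library came from the hamster of its number, and an exchange would also change what the comparisons with LP-NT compare. The tissue label was not checked by marker genes, since no source used here paired names of such genes with GeneIDs.

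Levels were compared between genes in TPM, the deposited unit that scales for transcript length and depth. Over the 12 hamsters Per1 had 92.4 ± 19.7 TPM (SD, n = 12), Cry2 82.6 ± 8.23, Nr1d1 81.5 ± 10.7 and Nr1d2 77.0 ± 9.01 TPM. These 4 genes overlapped with each other, and each exceeded the 6 other genes in every hamster. Arntl followed with 42.2 ± 4.04 TPM, Clock with 37.1 ± 6.97, Per3 with 34.6 ± 8.53, Cry1 with 25.4 ± 2.38, Per2 with 21.9 ± 3.38 and Npas2 with 18.4 ± 2.55 TPM (SD, n = 12 each). Neighbours among these 6 were not separated, and each pair of neighbours overlapped in its range over the hamsters. The median over the 16380 GeneIDs with at least 10 counts was 20.7 TPM, and 9 of the 10 clock genes lay above it. By group, 8 of the 10 were above the median in LP-NT, where Per2 had 19.4 ± 0.799 TPM (SD, n = 4), and 9 in SP-NT and in SP-HT. The order also depended on the group, since Per3 had 25.0 ± 4.10 TPM in LP-NT and 41.0 ± 4.58 TPM in SP-NT, where its mean was above that of Arntl (39.2 ± 1.15) and Clock (38.4 ± 3.46; SD, n = 4 each), with overlap.

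Variation between hamsters of the same group was described by the coefficient of variation of the normalised read count scaled by library size (CPM), averaged over the 3 groups. It was 3.17% for Arntl, the lowest of the 10 genes also with each hamster left out in turn, and 16.6% for Clock, 15.6% for Per1 and 14.3% for Per3. The order of the latter rested on single hamsters, and without LP-NT replicate 1 Clock was at 11.4%, below Per3 (14.1%), Per1 (13.9%) and slightly below Npas2. The median over the 10 genes was 9.49%, beside 7.31% over the 5789 GeneIDs within the same range of mean CPM. In bulk tissue, fewer cells of a type and less RNA per cell cannot be told apart in any of these values.

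**Figure D1:**
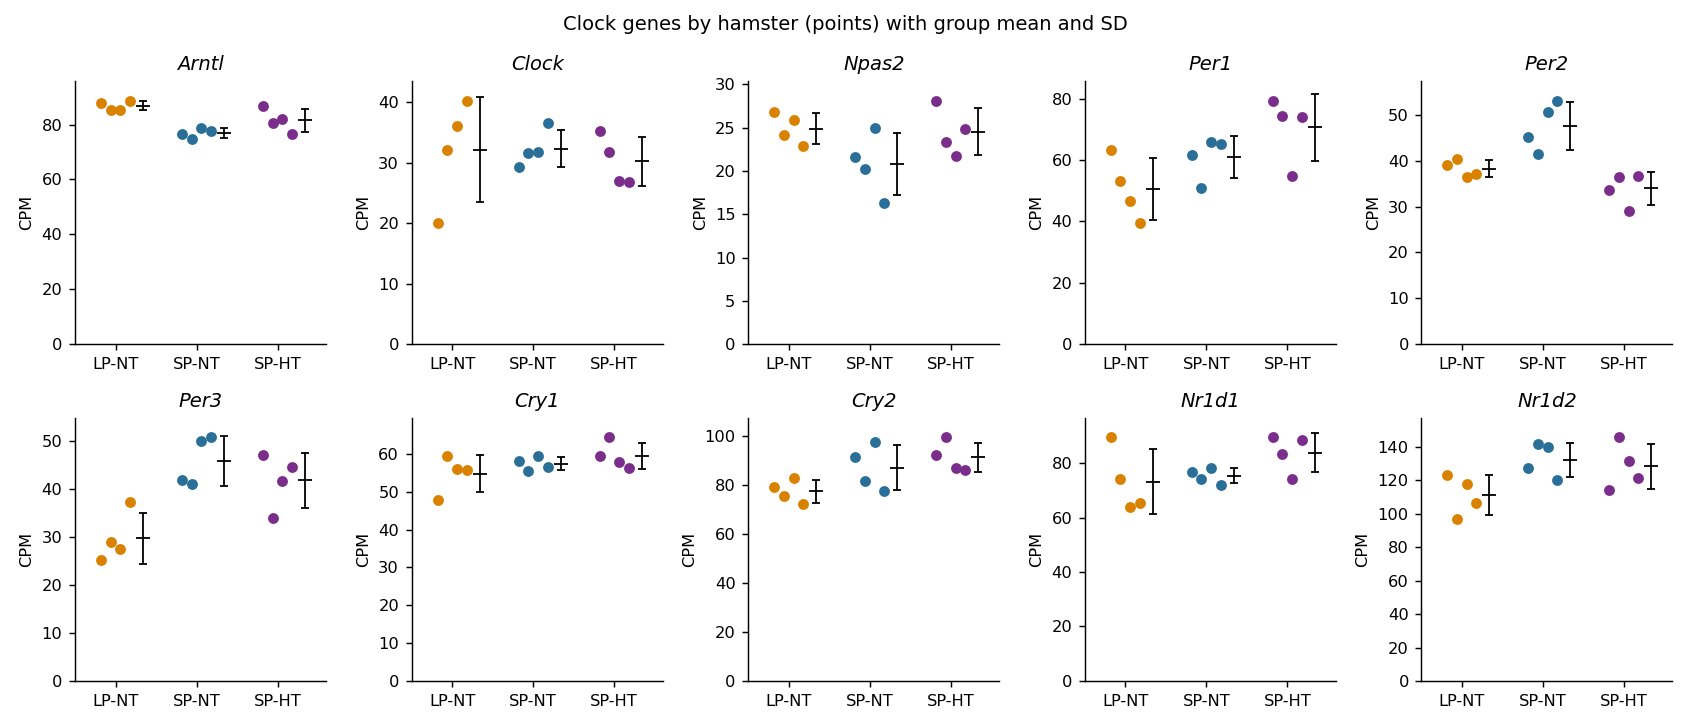
Normalised read counts (CPM) of the 10 clock genes in each hamster (points) of LP-NT, SP-NT and SP-HT, with the group mean and SD as bars beside them (n = 4 per group). Arntl, Per2 and Per3 separate SP-NT from LP-NT, and Per2 also separates SP-HT from SP-NT.

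The comparison of SP-NT with LP-NT asks how photoperiod, together with the surgery, relates to expression in normothermic hamsters. Among the activators, Arntl had 88.0, 85.4, 85.5 and 88.7 CPM in LP-NT replicates 1, 2, 3 and 5, and 76.7, 74.6, 78.7 and 77.5 CPM in SP-NT replicates 19, 36, 37 and 38. Every SP-NT hamster lay below every LP-NT hamster, in a gene that varied little within groups. The fitted log2(FC) was -0.18 (standard error 0.0481; unadjusted p = 0.00394, adjusted p = 0.902 in the quasi-likelihood F-test of edgeR, Benjamini-Hochberg adjusted), so the difference was not past the threshold over all genes. Without SP-NT replicate 19 it was also -0.18 (unadjusted p = 0.0119, adjusted p = 0.917 in the same edgeR test). The groups overlapped for Clock, at a log2(FC) of 0.0075, and for Npas2, at -0.26. In Clock, LP-NT replicate 1 had 20.1 CPM and the other LP-NT hamsters 32.1 to 40.3 CPM, and without it the log2(FC) was -0.16.

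Among the Per genes, which encode repressors of the loop, Per3 had 25.3, 28.9, 27.4 and 37.4 CPM in LP-NT replicates 1, 2, 3 and 5. In SP-NT replicates 19, 36, 37 and 38 it had 41.8, 41.0, 50.0 and 50.8 CPM. All SP-NT hamsters lay above all LP-NT hamsters, with LP-NT replicate 5 nearest to them. The difference as log2(FC) was 0.62 (95% interval 0.35 to 0.90, adjusted p = 0.437 in the quasi-likelihood F-test of edgeR, Benjamini-Hochberg adjusted). It was 0.75 without LP-NT replicate 5 (adjusted p = 0.0737 in the same edgeR test) and 0.67 without SP-NT replicate 19 (adjusted p = 0.789 in edgeR).

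Per2 had 39.0, 40.5, 36.3 and 37.0 CPM in LP-NT replicates 1, 2, 3 and 5, and 45.1, 41.5, 50.5 and 53.1 CPM in SP-NT replicates 19, 36, 37 and 38. The groups did not overlap, although SP-NT replicate 36 lay close to LP-NT replicate 2. The log2(FC) was 0.31 (standard error 0.0851; unadjusted p = 0.00396, adjusted p = 0.902 in the quasi-likelihood F-test of edgeR, Benjamini-Hochberg adjusted). It was 0.34 without SP-NT replicate 19 (unadjusted p = 0.00558, adjusted p = 0.917 in the same edgeR test). Per1 overlapped between the groups at a log2(FC) of 0.27. For the cryptochromes, which repress together with the PER proteins, the groups overlapped at 0.07 for Cry1 and 0.17 for Cry2. The nuclear receptors also overlapped, at 0.04 for Nr1d1 and 0.25 for Nr1d2. Several of these small values rested on single hamsters in edgeR. Cry1 was at 0.0075 without LP-NT replicate 1 and 0.11 without LP-NT replicate 2, Cry2 at 0.11 without SP-NT replicate 37, Per1 at 0.17 without LP-NT replicate 5 and Npas2 at -0.16 without SP-NT replicate 38. Nr1d1 was at 0.15 without LP-NT replicate 1 and below 0 without LP-NT replicate 3 or 5.

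In total, edgeR called 0 of the 10 clock genes, where 0.0370% of all 16199 GeneIDs tested were called. At an unadjusted p under 0.05 there were 4 of 10, Arntl, Per2, Per3 and Nr1d2, beside 4.84% of all GeneIDs. DESeq2 called 1 of the 10, Per3 (adjusted p = 0.00389), where it called 0.204% of all GeneIDs, and limma with voom called 0, where it called 0.0309%. Entering effective lengths left Per3 called by DESeq2 (log2(FC) 0.68, adjusted p = 0.000125), where 0.198% of all GeneIDs were called. The CPM of the groups did not overlap for 3 of the 10 genes and for 3.44% of all GeneIDs. The fitted log2(FC) was above 0 for 8 genes and below 0 for 2, Arntl and Npas2, with a median size of 0.21 beside 0.09 over all GeneIDs tested. Without SP-NT replicate 19 edgeR called 0 of the 10 and 0.0372% of 16112 GeneIDs, with 4 of the 10 at an unadjusted p under 0.05 beside 4.03% of the GeneIDs. DESeq2 without this hamster, a fit chosen after seeing the data, called Per3 (adjusted p = 0.0109) and 0.124% of the GeneIDs.

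**Figure D2:**
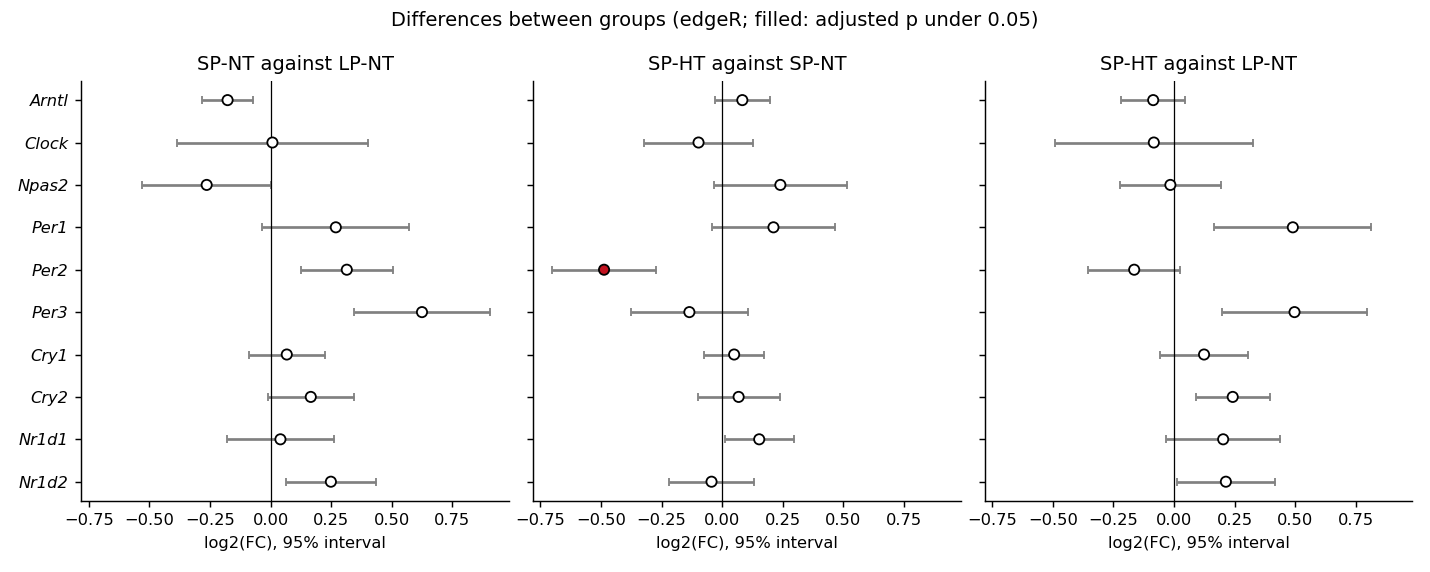
log2(FC) of the 10 clock genes in the 3 comparisons, with 95% intervals from edgeR's quasi-likelihood fit (n = 4 per group). The filled point, Per2 in SP-HT against SP-NT at -0.49, is the single one at an adjusted p under 0.05.

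The comparison of SP-HT with SP-NT addresses torpor under the same photoperiod, and it shares the SP-NT hamsters with the first comparison. SP-HT held 3 males and 1 female by the labels and SP-NT 2 males and 2 females, and SP-NT replicate 19 had counts like those of females. Torpor and sex can therefore not be fully told apart here. Per2 had 33.6, 36.5, 29.1 and 36.6 CPM in SP-HT replicates 2, 10, 26 and 33, where SP-NT had 41.5 to 53.1 CPM. Every hamster labelled SP-HT lay below every hamster labelled SP-NT, and the SP-HT values reached into the range of LP-NT. The difference as log2(FC) was -0.49 (standard error 0.0965, 95% interval -0.70 to -0.27, adjusted p = 0.0292 in the quasi-likelihood F-test of edgeR, Benjamini-Hochberg adjusted). Per2 was thus downregulated in the hamsters labelled SP-HT, as 1 of 10 clock genes called, where 2.40% of all 16195 GeneIDs tested were called. DESeq2 and limma with voom each called 1 of the 10 as well, beside 6.28% and 2.38% of all GeneIDs. The CPM did not overlap for this 1 gene of the 10 and for 12.1% of all GeneIDs.

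The effective length of Per2, the length over which its reads could fall as averaged by RSEM over the transcripts joined under the GeneID, differed between the same groups. It was 4835, 4029, 4051 and 4771 bases in SP-HT replicates 2, 10, 26 and 33, while SP-NT replicates 19, 36, 37 and 38 had 5384, 5084, 5306 and 5192. LP-NT replicates 1, 2, 3 and 5 had 5203, 5511, 5290 and 5597 bases. The SP-HT hamsters were below all 8 normothermic hamsters, with replicates 10 and 26 the shortest. Lengths were compared for the 10 genes in 3 comparisons, and Per2 was picked out after its lengths were seen, so no test is given. Among the 30 cases the groups did not overlap in 2, Per2 in SP-HT against SP-NT and in SP-HT against LP-NT. Of 12272 GeneIDs that joined several transcripts and averaged at least 50 counts, 8.88% had lengths that did not overlap between SP-HT and SP-NT, 8.16% between SP-HT and LP-NT and 2.68% between SP-NT and LP-NT.

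In TPM, which divides by these lengths, Per2 had 18.8, 24.2, 19.0 and 21.3 in SP-HT replicates 2, 10, 26 and 33, and 23.3, 22.7, 26.9 and 28.8 in SP-NT replicates 19, 36, 37 and 38. The groups then overlapped, since SP-HT replicate 10 lay above SP-NT replicates 19 and 36. With the lengths entered in the fit the log2(FC) was -0.25 (adjusted p = 0.286 in the quasi-likelihood F-test of edgeR, Benjamini-Hochberg adjusted) and -0.24 in DESeq2 (adjusted p = 0.228), so the call ended. The part of the lengths in the lower count was not tested further. The GeneID of Per2 joined 15 assembled transcripts in 6 Trinity gene groups, and isoforms or paralogs under it were not told apart.

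**Figure D3:**
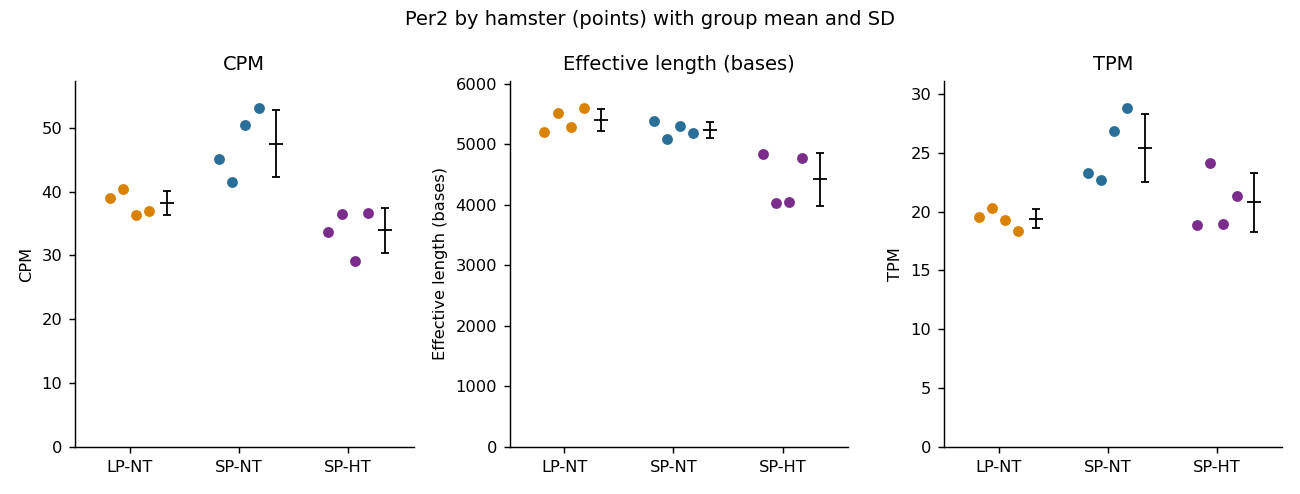
Per2 in each hamster (points) as CPM, effective length in bases and TPM, with group mean and SD (n = 4 per group). SP-HT lies below SP-NT without overlap in CPM and in effective length, and the groups overlap in TPM.

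The call of Per2 was also lost in most fits with 1 hamster fewer, in which the calls over all GeneIDs fell from 389 to between 104 and 318. Leaving hamsters out singly gave a log2(FC) from -0.55 to -0.42, and the adjusted p in the quasi-likelihood F-test of edgeR, Benjamini-Hochberg adjusted was under 0.05 without SP-HT replicate 33 (0.0400) and without SP-NT replicate 36 (0.0340). It was 0.0656 without SP-HT replicate 2, 0.0564 without replicate 10 and 0.0675 without replicate 26 in the same edgeR test. Without SP-NT replicate 19 it was 0.0588 at a log2(FC) of -0.51, without replicate 37 it was 0.0637 and without replicate 38 it was 0.0827, again in edgeR. Without SP-NT replicate 19 edgeR called 0 of the 10 clock genes and 0.770% of 16108 GeneIDs, while DESeq2 called Per2 (adjusted p = 0.00175) and 4.00% of the GeneIDs.

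The other 9 clock genes overlapped between SP-HT and SP-NT. Nr1d1, a repressor of Arntl, had 89.4, 83.3, 74.1 and 88.5 CPM in SP-HT replicates 2, 10, 26 and 33, and 76.8, 74.3, 78.2 and 72.1 CPM in SP-NT replicates 19, 36, 37 and 38. SP-HT replicate 26 lay within the SP-NT range and the other 3 above it. The log2(FC) was 0.15 (unadjusted p = 0.0372, adjusted p = 0.242 in the quasi-likelihood F-test of edgeR, Benjamini-Hochberg adjusted). It was 0.16 without SP-NT replicate 19 (adjusted p = 0.311 in edgeR). With effective lengths in the fit it was 0.23 (unadjusted p = 0.0129, adjusted p = 0.186 in edgeR) and in DESeq2 0.24 (unadjusted p = 0.00529, adjusted p = 0.0765). The log2(FC) of the 8 remaining genes lay between -0.14 for Per3 and 0.24 for Npas2. Both ends rested on single hamsters, since Per3 was at -0.046 when SP-HT replicate 10 was left out, at -0.090 and -0.081 when replicate 37 or 38 of SP-NT was, and Npas2 at 0.14 when SP-NT replicate 38 was. Over the 10 genes its median size was 0.12, beside 0.12 over all GeneIDs tested, and 2 of 10 had an unadjusted p under 0.05 in edgeR, beside 18.4% of all GeneIDs.

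The comparison of SP-HT with LP-NT differs in photoperiod, surgery and body temperature together, and it shares its hamsters with the comparisons above. Cry2 had 92.2, 99.6, 87.2 and 86.4 CPM in SP-HT replicates 2, 10, 26 and 33, and 79.4, 75.8, 82.9 and 72.1 CPM in LP-NT replicates 1, 2, 3 and 5. The groups did not overlap, and SP-NT, with 77.5 to 97.7 CPM, reached into both. The fitted log2(FC) was 0.24 (standard error 0.0693, adjusted p = 0.125 in the quasi-likelihood F-test of edgeR, Benjamini-Hochberg adjusted).

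Per3 had 47.0, 33.9, 41.7 and 44.6 CPM in SP-HT replicates 2, 10, 26 and 33, beside 25.3 to 37.4 CPM in LP-NT. Replicate 10 lay within the LP-NT range and the other 3 above it. The difference as log2(FC) was 0.50 (95% interval 0.20 to 0.80, adjusted p = 0.109 in the quasi-likelihood F-test of edgeR, Benjamini-Hochberg adjusted). With sex as labelled in the fit it was 0.58 (adjusted p = 0.0447 in edgeR), past the threshold, where 1.40% of all GeneIDs were called.

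Per1 had 79.4, 74.4, 54.8 and 74.0 CPM in SP-HT replicates 2, 10, 26 and 33, and 63.2, 53.1, 46.5 and 39.3 CPM in LP-NT replicates 1, 2, 3 and 5. SP-HT replicate 26 lay below LP-NT replicate 1, so the groups overlapped. The log2(FC) was 0.49 (standard error 0.147, adjusted p = 0.141 in the quasi-likelihood F-test of edgeR, Benjamini-Hochberg adjusted).

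For SP-HT against LP-NT edgeR called 0 of the 10 clock genes, where 1.37% of all 16157 GeneIDs tested were called. At an unadjusted p under 0.05 there were 4 of 10, Per1, Per3, Cry2 and Nr1d2, beside 15.1% of all GeneIDs. DESeq2 called 3, Per1 (adjusted p = 0.0349), Per3 (adjusted p = 0.0172) and Cry2 (adjusted p = 0.0340), all higher in SP-HT, where it called 4.37% of all GeneIDs, and limma with voom called 0, where it called 1.25%. With effective lengths in the fit DESeq2 called Per3 (adjusted p = 0.00189) and no longer Per1 (adjusted p = 0.104) and Cry2 (adjusted p = 0.0663), where it called 3.86% of all GeneIDs. The log2(FC) of Per1 in DESeq2 was 0.50 without the lengths and 0.49 with them, and that of Cry2 was 0.25 in both fits. The CPM did not overlap for 1 of the 10 genes and for 10.6% of all GeneIDs. The log2(FC) of Arntl, Clock, Npas2 and Cry1 lay between -0.09 and 0.12, that of Per2 was -0.16, and Nr1d1 and Nr1d2 were at 0.20 and 0.21. With effective lengths in the fit Per2 turned to 0.12 in edgeR and in DESeq2, and Clock and Npas2 also changed sign. With single hamsters left out of the edgeR fit, Per2 was at -0.095 without SP-HT replicate 26, Nr1d1 at 0.31 and Cry1 at 0.061 without LP-NT replicate 1, and Arntl at -0.057 without SP-HT replicate 33. The median size over the 10 genes was 0.18, beside 0.13 over all GeneIDs tested.

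**Figure D4:**
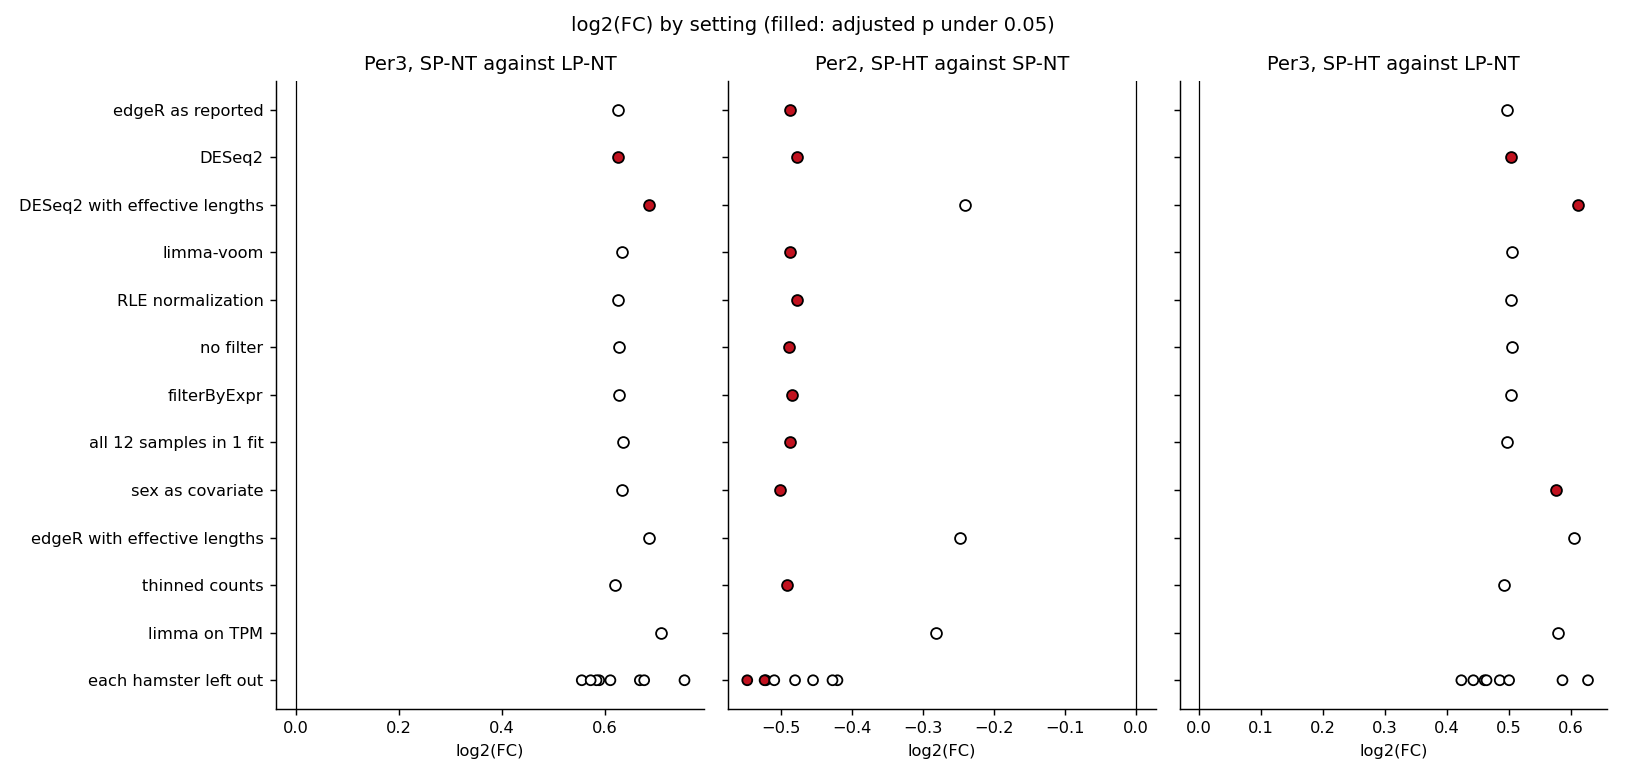
log2(FC) of Per3 in SP-NT against LP-NT, Per2 in SP-HT against SP-NT and Per3 in SP-HT against LP-NT under each setting of the fit, with 1 point for each hamster left out in the lowest row. Filled points have an adjusted p under 0.05, and Per2 moves from -0.49 to -0.25 when effective lengths enter the edgeR fit.

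Relations between clock genes were computed within groups, as log2(CPM + 0.5) minus the group mean over the 12 hamsters, for 10 pairs taken from textbook knowledge of the loop. With Benjamini-Hochberg adjustment over these pairs, 0 of 10 relations had an adjusted p under 0.05, and 1 had an unadjusted p under 0.05. That pair was Per1 and Per2, with Pearson's r = 0.719 (permutation within groups, p = 0.00944, adjusted p = 0.0944) and Spearman's rho = 0.629 (permutation p = 0.0404, adjusted p = 0.404). Without SP-HT replicate 26 and LP-NT replicate 5, the hamsters farthest from the median of Per1 on this scale, r was 0.631. Without SP-HT replicate 26 and LP-NT replicate 1, those farthest from their group mean, it was 0.676. Without SP-NT replicate 19 it was 0.741 (permutation p = 0.0203, adjusted p = 0.203), with Spearman's rho = 0.527 (permutation p = 0.126, adjusted p = 0.795). On TPM r was 0.422 (permutation p = 0.202, adjusted p = 0.633), and 0.204 without the 2 hamsters farthest from the median.

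Pearson's r of the 9 other pairs lay between -0.15 for Arntl with Nr1d2 and 0.366 for Arntl with Per3, with an adjusted permutation p of 0.915 in each. Other pairs reached a similar or larger size in single settings. Without the 2 hamsters farthest from the median of the first gene, r was 0.744 for Cry1 with Cry2, where it had been 0.314, and 0.640 for Arntl with Per3. On TPM it was -0.62 for Arntl with Nr1d2 (permutation p = 0.0825, adjusted p = 0.633). Arntl with Clock had r = 0.433 on TPM (permutation p = 0.189, adjusted p = 0.633) and, without SP-HT replicate 2 and LP-NT replicate 1, the reverse sign at -0.857, the largest size among the 10 pairs in any setting. The 35 pairs outside the 10 were not tested, and their r reached 0.83 for Per1 with Nr1d1, 0.728 for Npas2 with Cry2, -0.68 for Clock with Nr1d1 and 0.670 for Clock with Cry1, as a description. LP-NT replicate 1 was the hamster farthest from its group mean in Clock (-0.618), Nr1d1 (0.301) and Cry1 (-0.188). Both values with Clock leaned on this hamster, and r without it was not computed.

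**Figure D5:**
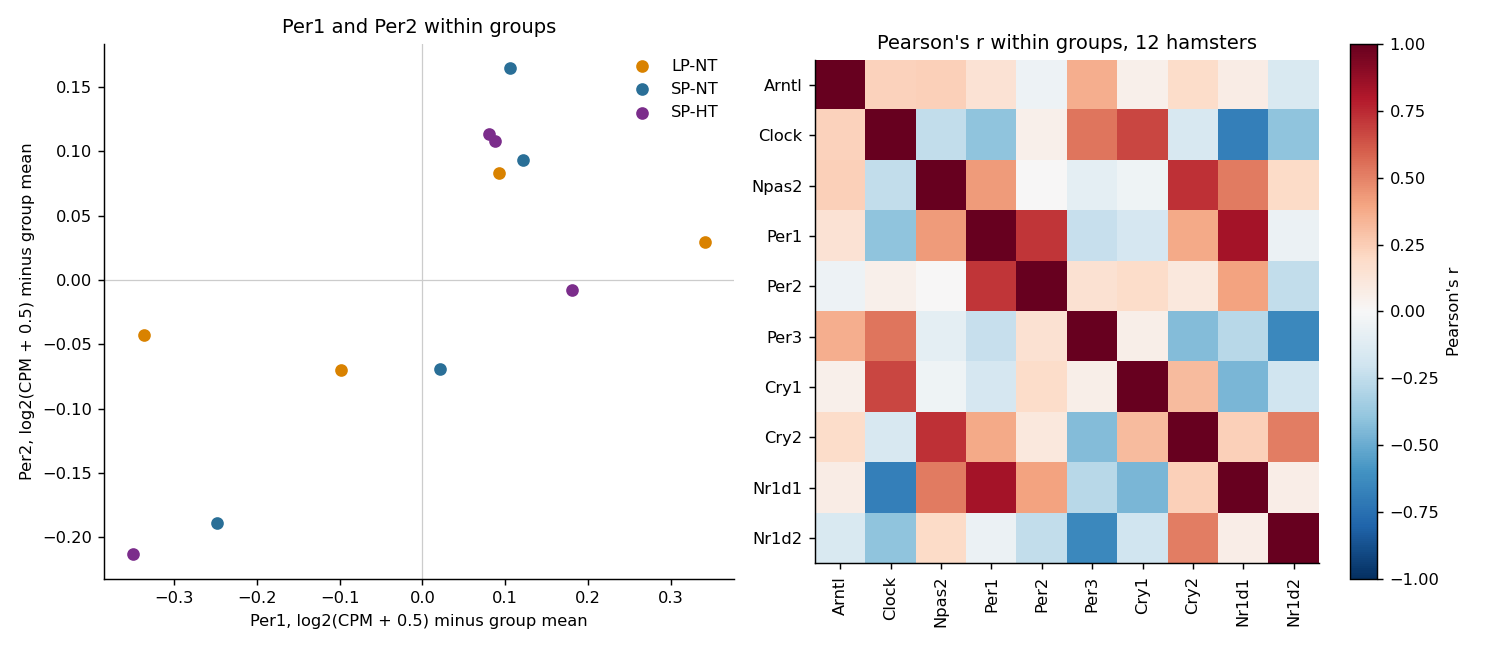
Left, Per2 against Per1 in each hamster as log2(CPM + 0.5) minus the group mean; right, Pearson's r of all pairs of the 10 clock genes on that scale over the 12 hamsters, from -1 (blue) to 1 (red). Per1 and Per2 have r = 0.719, 10 of the pairs shown were tested, and Per1 with Nr1d1 has the largest r, 0.83, among those not tested.

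Likeness over the 12 hamsters was measured for Arntl, Nr1d1, Per2 and Per3 by Pearson's r of log2(CPM + 0.5) with 13939 other GeneIDs of at least 1 CPM on average, as a description with no test. The nearest GeneID was 108015 for Per3 (r = 0.972) and 320869 for Per2 (r = 0.950), and neither could be named from the files. No clock gene was among the 3 nearest of any of these 4 genes. Per1 came nearest, at rank 9 for Nr1d1 (r = 0.857), while Npas2 stood at rank 223 for Arntl (r = 0.567). Arntl had negative values with Per3 (r = -0.58) and Nr1d2 (r = -0.60), which include the differences between the groups.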

How the data were processed

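The authors pooled the reads of all hamsters into a de novo Trinity assembly, grouped transcripts by the mouse GeneID of the best protein hit, and quantified each library with RSEM. The submitters' processing notes name FastQC 0.11.9, Trim Galore 0.6.6, Bowtie 1.3.0, RSEM 1.3.1 and the build GRCm39. The deposited values are expected counts, TPM and effective lengths per GeneID. Expected counts were rounded, and GeneIDs with at least 10 counts per comparison were tested with edgeR 4.0.16 (quasi-likelihood test, TMM, Benjamini-Hochberg, threshold 0.05) in R 4.3.3. DESeq2 1.42.0 and limma 3.58.1 were alternatives. The fits of edgeR, with and without effective lengths, of DESeq2 without them and of limma were tested on simulated data. CPM used TMM factors over all 12 hamsters. Relations were tested with 100000 permutations within groups. Pairs of hamsters of a group differed by more than sampling noise (chi-square per degree of freedom 7.01 to 39.2). In LP-NT, pairs with replicate 1 had values of 27.8 to 39.2 and the other pairs 9.30 to 14.2. The genes named are the 10 members. The members, lists and alternatives were chosen with earlier results of these data known. A list of further clock genes and cell type markers needed gene names and was not used here.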

Additional observations from a re-analysis of the deposited data

How the results depend on the processing

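Over settings other than leaving out hamsters in edgeR, 329 of 350 log2(FC) of the clock genes kept their direction and their side of the threshold. Of the rest, 3 lost a call, 8 gained one and 10 changed direction. With a hamster left out, 224 of 240 kept both, 6 lost a call, 0 gained one and 10 changed direction. Per2 in SP-HT against SP-NT was the single call to lose, and several settings were close variants of the same edgeR fit, so the high shares say little about robustness. For SP-NT against LP-NT, 1 clock gene, Per3, was called by DESeq2 (33 of 16199 GeneIDs), 1 by DESeq2 with effective lengths (32) and 1 by DESeq2 without SP-NT replicate 19 (20 of 16112), a fit chosen after seeing the data, against 0 in edgeR (6). For SP-HT against SP-NT, 0 were called by DESeq2 with effective lengths (759 of 16195 GeneIDs), by edgeR with effective lengths (147) and by limma on TPM (137 of 16094), which was chosen after seeing the data, and leaving out hamsters gave 0 to 1. For SP-HT against LP-NT, 3 were called by DESeq2 (706 of 16157 GeneIDs), 1, Per3, by DESeq2 with effective lengths (623) and 1, Per3, with sex as covariate (227). In SP-HT against LP-NT, DESeq2 with effective lengths gave 0.066 for Clock, 0.032 for Npas2 and 0.12 for Per2, edgeR with effective lengths 0.062, 0.027 and 0.12, and limma on TPM 0.097, 0.0016 and 0.093. Clock was at 0.0083 with sex as covariate. All fits with sex as covariate used the sexes as labelled, also for SP-NT replicate 19. With hamsters left out, Clock ranged from -0.26 to 0.046 and Npas2 from -0.081 to 0.040 in that comparison, Clock from -0.16 to 0.14 and Nr1d1 from -0.017 to 0.15 in SP-NT against LP-NT, and Nr1d2 from -0.11 to 0.0097 in SP-HT against SP-NT. On TPM, r within groups was -0.0047 for Arntl with Nr1d1, -0.17 for Nr1d1 with Nr1d2 and -0.00069 for Per2 with Per3. On CPM, without the 2 hamsters farthest from the median, and likewise without the 2 farthest from their group mean, a rule chosen after seeing the data, it was -0.099 for Arntl with Clock, 0.28 for Arntl with Per2, -0.36 for Nr1d1 with Nr1d2 and -0.0019 for Per2 with Per3. The cause was not tested. Over all GeneIDs, leaving out hamsters gave 5 to 8, 104 to 318 and 55 to 200 calls, and other settings 5 to 33, 137 to 1017 and 80 to 706, against 6, 389 and 221. No paired analysis was possible, since each hamster was sampled once and in a single group.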
